A study of Mus musculus with 6 samples.

Results

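Polycomb group proteins were described in cultured mouse spermatogonial stem cells through the transcripts of 10 subunits, Ezh1, Ezh2, Eed, Suz12, Jarid2, Rnf2, Ring1, Bmi1, Cbx7 and Phc1. The 10 genes were taken by name from the 18194 genes measured, and all 10 had a value. Each gene is represented by its brightest probe set, the group of array probes for a transcript, among the probe sets with exactly 1 gene symbol. The 10 genes have 28 such probe sets, and the others serve as a check. RNA came from mSSC, the multipotent state, from iSSC, an intermediate state, and from SSC, the unipotent germ-line stem cells, with 2 arrays each. All cultures derived from testes of male ICR mice aged 3 to 5 days, and no allele or transgene is given for any group. Clumps from early (0 to 1) or middle (9 to 10) passages were grown on mouse embryonic fibroblasts stopped by mitomycin, in germ stem cell medium or a serum-free embryonic stem cell medium. Colonies that turned flat or came to resemble embryonic stem cells were kept in the first medium or moved to the second, and which passage and medium each array had is not given. The labels do not say that the 2 arrays of a group are separate cultures or animals, so p-values reflect the spread among these arrays alone, which may be technical. The number of arrays limits the precision.

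Polycomb proteins keep developmental genes silent through modified histones. Polycomb repressive complex 2 (PRC2) consists of a methyltransferase, Ezh2 or its paralog Ezh1, with the core subunits Eed and Suz12, and places methyl groups on a lysine of histone H3. Polycomb repressive complex 1 (PRC1) is built on a ubiquitin ligase, Rnf2 or its paralog Ring1, which marks histone H2A. In canonical PRC1 a Cbx protein reads the methyl mark, a Pcgf protein such as Bmi1 pairs with the ligase, and a Phc protein lets complexes assemble with each other. In mouse embryonic stem cells Cbx7 is the main Cbx protein and Jarid2 helps to bring PRC2 to its targets.

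Values are log2 signals. A change is the difference between 2 group means on that scale ± SE (n = 2 arrays per group), tested by limma with Benjamini-Hochberg adjustment over all genes. A gene is said to have risen or fallen where its adjusted p was under 0.05. In mSSC against SSC 5 of the 10 subunits rose and 1 fell, against 8.22% and 10.6% of all genes. Among the 8946 genes at least as bright on average as the dimmest subunit, 10.8% rose and 14.7% fell in this comparison. In mSSC against iSSC 4 subunits rose and 2 fell, against 7.53% and 9.6% of all genes and 10.1% and 14.1% of the brighter ones. In iSSC against SSC limma called 0 of the 10, with 1 at an unadjusted p under 0.05, against 2.09% of all genes called (0.225% higher and 1.87% lower, and 2.65% lower among the brighter genes) and 17% at the unadjusted p. The arrays of mSSC lay wholly above those of SSC for 6 subunits and wholly below for 2, as they did for 32.3% and 26.3% of all genes. Between mSSC and iSSC this held for 7 above and 2 below, against 29.6% and 33.2% of all genes. Between iSSC and SSC it held for 2 above and 3 below, against 32.3% and 17.7%. The comparisons share arrays: the arrays of each group enter 2 of them. The median difference of the 10 subunits was 1.13 in mSSC against SSC, 0.71 in mSSC against iSSC and 0.18 in iSSC against SSC. Over all genes these medians were 0.08, -0.01 and 0.10.

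**Figure D1:**
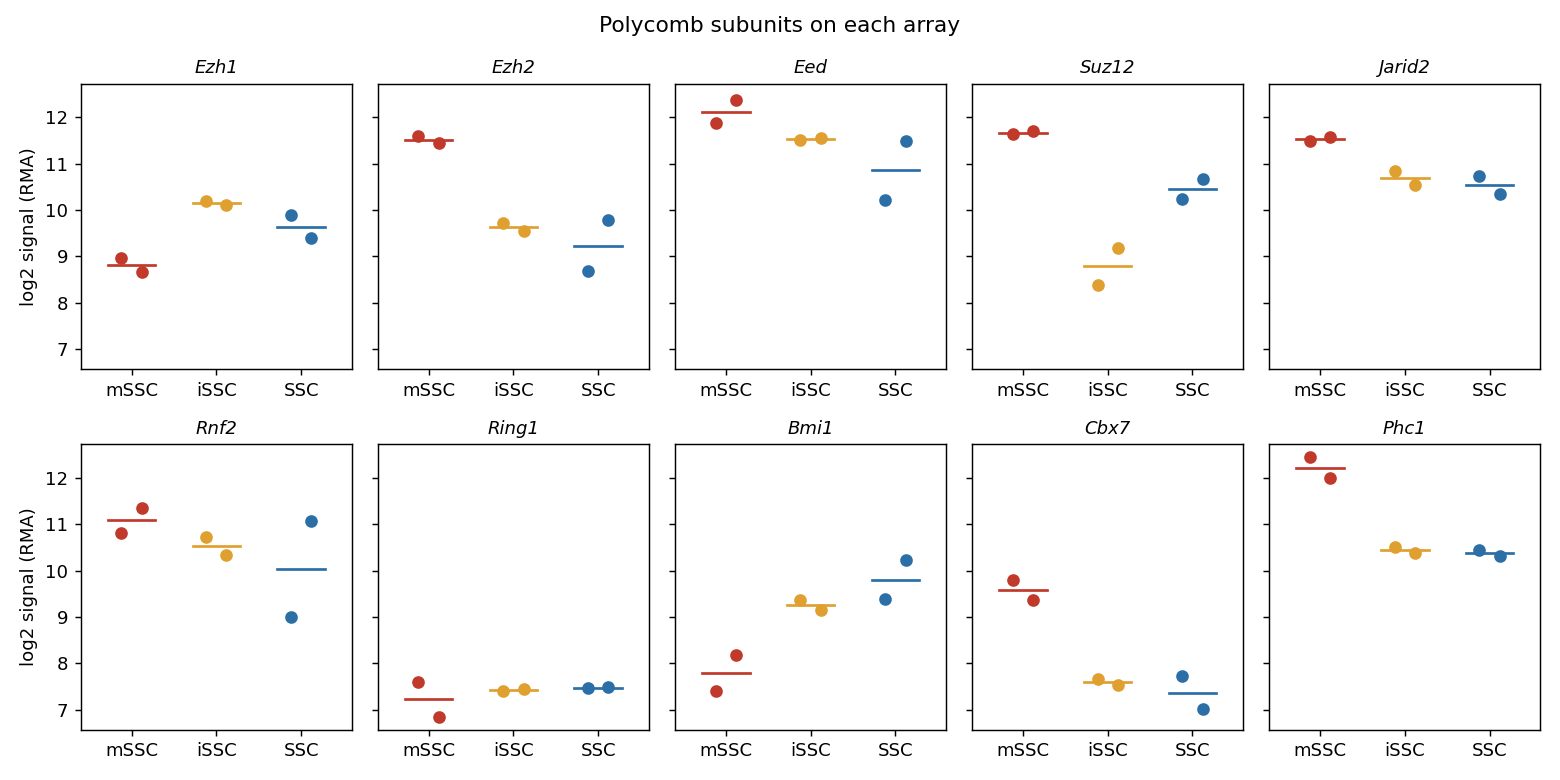
Log2 signal (vertical axis) of the 10 Polycomb subunits on the 2 arrays (points) of mSSC, iSSC and SSC, with the group means (lines). Ezh2, Cbx7 and Phc1 lie higher on both mSSC arrays than on the other 4, Bmi1 and Ezh1 lie lower there, and Suz12 is lowest on the iSSC arrays. Heights of different genes cannot be set against each other.

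The labels were checked against defining markers. Nanog, a pluripotency factor, was at 11.58 and 12.44 on the mSSC arrays, against 3.62 and 3.25 on the iSSC arrays and 3.42 and 3.29 on the SSC arrays. Gfra1, a receptor for the niche factor Gdnf, was at 5.45 and 5.71 on the mSSC arrays, against 10.09 and 10.72 on the iSSC arrays and 9.56 and 10.14 on the SSC arrays. Markers of other cells moved between the same samples. Of 10 macrophage markers 10 fell in mSSC against SSC, and their summed linear signal was 657 and 1321 in mSSC, 19060 and 11022 in iSSC, and 53410 and 37762 in SSC. Of 9 fibroblast markers 6 fell, with sums of 2475 and 11997 in mSSC, 10502 and 13746 in iSSC, and 78235 and 49003 in SSC. Of 10 Sertoli cell markers 8 fell, with sums from 1086 to 1250 in mSSC, 2126 to 4448 in iSSC and 11533 to 14676 in SSC. The macrophage marker Lyz2 was at 6.16 and 6.15 in mSSC, against 14.27 and 14.16 in SSC. The part of these cells in the Polycomb results was not tested, and in such bulk RNA fewer cells of a type and less RNA per cell cannot be told apart. SSC replicate 1 had the largest excess of 3' over 5' signal on all 4 control transcripts examined, for example 2.73 for pyruvate carboxylase against 0.88 to 1.32 on the other 5 arrays. Where leaving this array out ended a call or moved a subunit's value by over 1.5 times, that is given beside the result or in the section on processing.

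The catalytic subunits of PRC2 moved in opposite directions between mSSC and iSSC, where Ezh2 rose and Ezh1 fell, while against SSC only Ezh2 passed. Ezh2, the methyltransferase typical of dividing cells, was at 11.59 and 11.44 in mSSC, 9.72 and 9.55 in iSSC, and 8.68 and 9.78 in SSC. Both mSSC arrays lay above all 4 others, while the SSC arrays lay on either side of the iSSC arrays. Ezh2 rose 4.87-fold in mSSC against SSC (2.28 ± 0.37, adjusted p = 0.0102) and 3.67-fold in mSSC against iSSC (1.88 ± 0.37, adjusted p = 0.0188). Without SSC replicate 1, the lower of the SSC arrays, the first of these differences was 1.74 (adjusted p = 0.018). The second lost its call when either iSSC array or either mSSC array was left out, with adjusted p of at most 0.116 and differences from 1.79 to 1.96. Ezh1, the paralog with weaker catalytic activity that predominates in cells that no longer divide, was at 8.96 and 8.66 in mSSC, 10.20 and 10.11 in iSSC, and 9.89 and 9.39 in SSC. The mSSC arrays were the lowest and the iSSC arrays the highest, with no overlap between groups. Ezh1 fell 2.54-fold in mSSC against iSSC (-1.34 ± 0.25, adjusted p = 0.0167), and was at -0.82 ± 0.25 in mSSC against SSC (adjusted p = 0.0699). The call against iSSC was lost without iSSC replicate 1 (adjusted p = 0.123), iSSC replicate 2 (0.102) or mSSC replicate 2 (0.0658). The difference from SSC passed without SSC replicate 2 (-1.07, adjusted p = 0.0417). With the most variable of its 4 probe sets Ezh1 was at -0.03 in mSSC against SSC (adjusted p = 0.978) and at -1.69 in mSSC against iSSC (adjusted p = 0.12). All 4 probe sets had the same sign as the main one in each comparison, and 2 of them lay below the array median on every array.

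Within an array, Ezh2 minus Ezh1 was 2.62 and 2.78 in mSSC, -0.48 and -0.56 in iSSC, and -1.21 and 0.39 in SSC. Only the change of this difference between groups can be read, since each probe set has its own brightness. It was 3.11 higher in mSSC than in SSC and 3.22 higher in mSSC than in iSSC, with the groups apart in both. In iSSC it lay between the SSC arrays, at -0.11 from their mean. The 2-sided exact permutation test gave p = 0.333 for both changes in mSSC, which is the smallest p that 2 arrays against 2 allow. The change in mSSC against SSC was 2.31 without SSC replicate 1 and 3.90 without SSC replicate 2, and in iSSC against SSC it was -0.91 without replicate 1 of SSC and 0.68 without replicate 2.

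The bases before an annotated start of Ezh2 and of Ezh1 are shown because these paralogs moved apart. They come from RefSeq (GRCm38.p6), and a sequence was found for all 10 subunits. The Ezh2 stretch is chr6:47595031-47595280 and the Ezh1 stretch chr11:101226464-101226713, both on the minus strand and 250 bases long. On that strand a gene begins at the high end of its span, which for Ezh2 is position 47595270. Most of the Ezh2 stretch thus lies inside the gene, before an internal start. The window searched for Cbx7, chr15:79932597-79932896, also lies inside its gene, which begins at 79971143. Capitals mark a match, on either strand, to the CCAAT box or to 1 of 3 forms of the E2F motif, TTTCGCGC, TTTGGCGC and TTTCCCGC. E2F factors drive genes of DNA replication. The octamer ATGCAAAT, bound by factors such as Oct4, was searched too and was not found in any of the 11 promoters of the 10 genes.
Ezh2: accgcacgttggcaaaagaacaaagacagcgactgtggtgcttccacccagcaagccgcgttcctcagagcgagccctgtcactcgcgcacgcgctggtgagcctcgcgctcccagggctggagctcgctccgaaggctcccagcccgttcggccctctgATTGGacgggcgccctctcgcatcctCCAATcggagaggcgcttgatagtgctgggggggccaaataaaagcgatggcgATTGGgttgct
Ezh1: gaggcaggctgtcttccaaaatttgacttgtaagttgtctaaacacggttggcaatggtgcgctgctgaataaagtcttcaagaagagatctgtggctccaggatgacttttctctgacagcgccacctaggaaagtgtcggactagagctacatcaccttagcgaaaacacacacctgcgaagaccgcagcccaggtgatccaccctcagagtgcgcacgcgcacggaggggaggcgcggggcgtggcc
Ezh2 held 3 CCAAT boxes, which 33.8% of 32851 promoters hold at least once in 250 bases. Its E2F match, TTTGGCGC, began 3 bases after the start used here, outside the stretch shown. Of all promoters 0.514% hold that form in the full window of 300 bases. Ezh1 held no CCAAT box and none of the E2F forms in its 300 bases. Windows of Ezh2 and Ezh1 had 31 and 23 CpG dinucleotides, against a median of 7 over all promoters. These matches describe letters and do not show that a factor binds.

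Genes of DNA replication were examined beside Ezh2, which is known to follow the cell cycle. Of 16 G1/S genes 4 rose and 0 fell in mSSC against SSC by limma, or 25% and 0% against 8.22% and 10.6% of all genes. Their summed linear signal was 81899 and 76967 in mSSC, 61010 and 59776 in iSSC, and 39110 and 52158 in SSC. Like Ezh2, these sums were lowest on SSC replicate 1, and the part of cell division in the Ezh2 result was not tested. Against iSSC, where Ezh2 also rose in mSSC, 1 of the 16 rose and 1 fell, with a median difference of 0.25. These shares, 6.25% each, were near those of all genes, 7.53% and 9.6%. The gene most like Ezh2 over the 6 arrays, by Euclidean distance of values centred on the gene mean, was Pole2, a subunit of the replicative DNA polymerase epsilon (distance 0.29). Pole2 was at 11.50 and 11.14 in mSSC, 9.70 and 9.56 in iSSC, and 8.67 and 9.54 in SSC. Ezh1 was most like Map3k12, a kinase of stress signalling (distance 0.16).

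**Figure D2:**
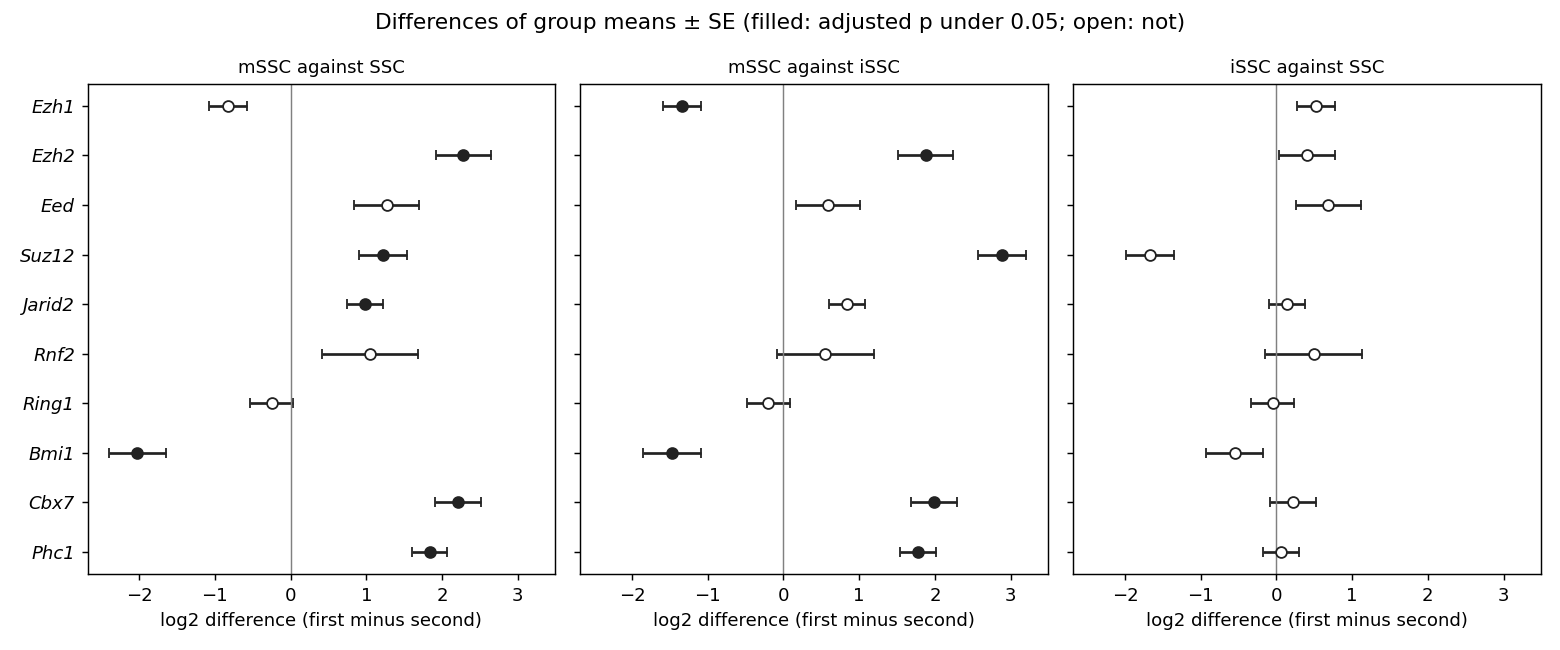
Log2 differences of group means (horizontal axis, first group minus second; points) ± SE (bars) for the 10 Polycomb subunits in the 3 comparisons, with filled points where the adjusted p was under 0.05 and open points elsewhere. Ezh2, Cbx7 and Phc1 lie to the right of 0 and Bmi1 to the left in both comparisons of mSSC, and no point is filled in iSSC against SSC.

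Suz12, the core subunit that holds PRC2 together, had a pattern of its own among the 10, with its lowest level in iSSC. It was at 11.63 and 11.71 in mSSC, 8.38 and 9.18 in iSSC, and 10.24 and 10.66 in SSC. The 3 groups did not overlap. Both iSSC arrays lay below all others for Suz12 alone among the 10, and for 8.13% of all genes, so 1 in 10 is near that share. Suz12 rose 7.41-fold in mSSC against iSSC (2.89 ± 0.32, adjusted p = 0.00365), the largest difference of any of the 10 subunits in the 3 comparisons. This call held in all 16 alternative settings, at adjusted p from 0.00213 to 0.0308. Suz12 also rose 2.33-fold in mSSC against SSC (1.22 ± 0.32, adjusted p = 0.0439). That call was lost in 7 of the 16 settings, which are not all separate fits, as the section on processing explains. They were the removal of SSC replicate 1 (adjusted p = 0.148), SSC replicate 2 (0.0587), mSSC replicate 1 (0.119) or mSSC replicate 2 (0.132), a second quantile normalization (0.052), the mean over probe sets (0.0883) and the most variable probe set (0.0802). In iSSC against SSC Suz12 was at -1.67 ± 0.32 (95% interval -2.44 to -0.90, adjusted p = 0.06), which did not pass, and adjusted p ranged from 0.0517 to 0.373 over the settings.

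All 6 probe sets of Suz12 had the same order of group means, mSSC highest and iSSC lowest. Their differences ran from 0.47 to 3.28 in mSSC against iSSC, 0.37 to 1.77 in mSSC against SSC and -1.67 to -0.10 in iSSC against SSC. When all probe sets with a single symbol were tested together, 3 of the 6 were called in mSSC against iSSC and 0 in the other comparisons by limma. The probe sets share a transcript and are not replicates.

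**Figure D3:**
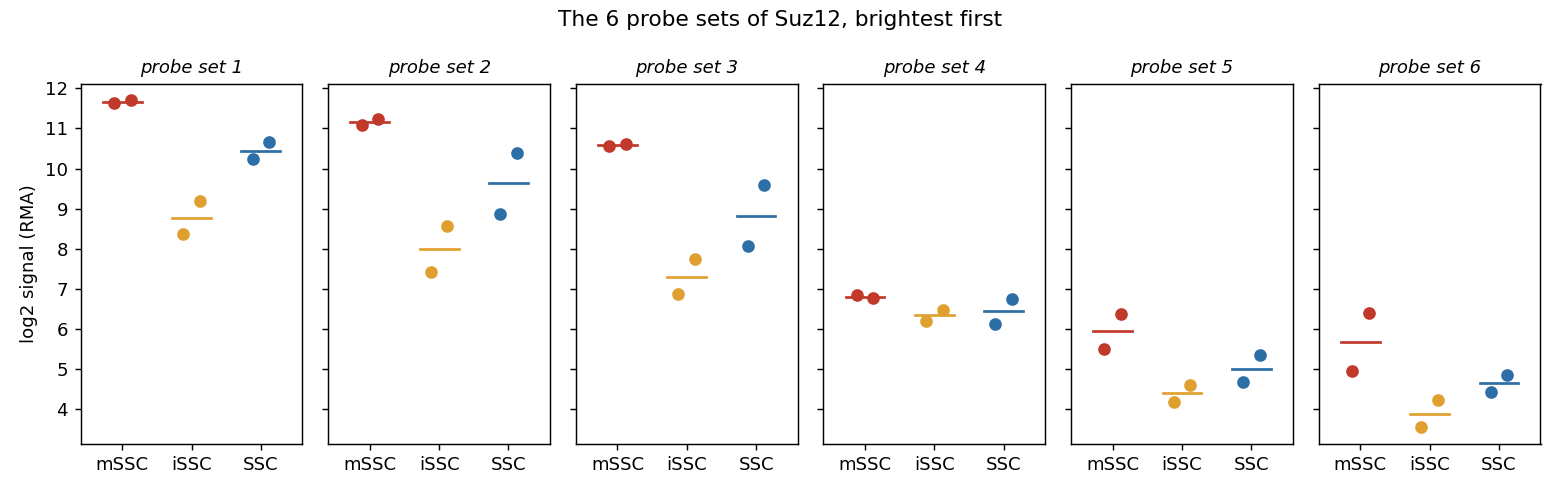
Log2 signal (vertical axis) of the 6 probe sets of Suz12, from the brightest on the left, on the 2 arrays (points) of mSSC, iSSC and SSC, with group means (lines). In each panel the iSSC mean is the lowest and the mSSC mean the highest, and the gap between them runs from 0.47 to 3.28.

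The genes most like Suz12 over the 6 arrays were Ipo7, a nuclear import receptor (distance 0.42), Cul5, a scaffold of ubiquitin ligases (0.46), and Kat6b, a histone acetyltransferase (0.48). Ipo7 was at 11.91 and 12.02 in mSSC, 9.08 and 9.52 in iSSC, and 10.80 and 11.31 in SSC. The stretch before the start of Suz12, chr11:79992856-79993105 on the plus strand, is shown because Suz12 differs in pattern from the other PRC2 core genes, with capitals as above.
Suz12: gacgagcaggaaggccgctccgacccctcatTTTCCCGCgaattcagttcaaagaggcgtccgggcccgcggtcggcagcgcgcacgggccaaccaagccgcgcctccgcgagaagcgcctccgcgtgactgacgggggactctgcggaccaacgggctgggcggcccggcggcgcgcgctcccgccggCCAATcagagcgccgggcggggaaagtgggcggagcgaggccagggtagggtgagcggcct
It held the E2F form TTTCCCGC, which 0.895% of promoters hold in 250 bases, at position -219 from the start, and 1 CCAAT box. In the full window of 300 bases Suz12 had 41 CpG dinucleotides, more than 96.5% of promoters.

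Eed, the subunit that binds the methyl mark and stimulates the enzyme, was at 11.88 and 12.36 in mSSC, 11.51 and 11.56 in iSSC, and 10.21 and 11.49 in SSC. The mSSC arrays were the highest, but the SSC arrays differed by 1.28 between themselves. Eed was at 1.27 ± 0.43 in mSSC against SSC (95% interval 0.24 to 2.30, adjusted p = 0.0906) and at 0.59 ± 0.43 in mSSC against iSSC (adjusted p = 0.43). It passed against SSC without SSC replicate 2 (1.91, adjusted p = 0.0156) and was at 0.63 without SSC replicate 1. Its second probe set was dim and had the opposite sign.

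Jarid2 was at 11.49 and 11.56 in mSSC, 10.84 and 10.53 in iSSC, and 10.74 and 10.35 in SSC. The mSSC arrays lay above the other 4, and those of iSSC and SSC overlapped. Jarid2 rose 1.97-fold in mSSC against SSC (0.98 ± 0.24, adjusted p = 0.0355) and was at 0.84 ± 0.24 in mSSC against iSSC (adjusted p = 0.0595). The call against SSC was lost in 8 of 16 settings, with differences from 0.79 to 1.17 with an array left out. Losses came without SSC replicate 2 or either mSSC array, after a second quantile normalization and at a minimum of 2-fold. It was also lost without either iSSC array and on the 4 arrays compared, which are 1 and the same fit. Against iSSC Jarid2 passed in 5 settings, the lowest adjusted p being 0.0409 with the mean over probe sets. Among them were the removals of either SSC array, which again are 1 fit. All 3 probe sets of Jarid2 were higher in mSSC than in SSC, by 0.71 to 1.12.

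Among the PRC1 subunits, Phc1 and Cbx7 rose in mSSC against both other groups. Phc1, the polyhomeotic protein that links PRC1 complexes, was at 12.44 and 11.998 in mSSC, 10.51 and 10.38 in iSSC, and 10.46 and 10.32 in SSC. Both mSSC arrays were well above the other 4, which lay between 10.32 and 10.51. Phc1 rose 3.57-fold in mSSC against SSC (1.84 ± 0.24, adjusted p = 0.00527) and 3.43-fold in mSSC against iSSC (1.78 ± 0.24, adjusted p = 0.00604). The first call held in all 16 settings, and the second was lost without iSSC replicate 1 (adjusted p = 0.0568) or iSSC replicate 2 (0.0591). In iSSC against SSC the difference was 0.06 ± 0.24, with a 95% interval from -0.51 to 0.63. Only 1 probe set measures Phc1, so it has no second one as a check.

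The stretch before the start of Phc1, chr6:122340228-122340477 on the minus strand, is shown beside those of the PRC2 genes because it had the fewest CpG dinucleotides of the 10 genes.
Phc1: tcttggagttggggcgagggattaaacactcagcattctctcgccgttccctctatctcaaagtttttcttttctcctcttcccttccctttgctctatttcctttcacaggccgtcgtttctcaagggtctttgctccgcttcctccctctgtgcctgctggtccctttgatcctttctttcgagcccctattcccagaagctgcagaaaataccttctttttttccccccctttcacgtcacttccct
It had 9 CpG dinucleotides in the 300 bases, more than 54.2% of promoters, and none of the motifs searched.

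Cbx7 was at 9.80 and 9.36 in mSSC, 7.66 and 7.52 in iSSC, and 7.72 and 7.02 in SSC. The mSSC arrays were apart from the rest, and those of iSSC fell between the SSC arrays. It rose 4.64-fold in mSSC against SSC (2.21 ± 0.30, adjusted p = 0.00641) and 3.97-fold in mSSC against iSSC (1.99 ± 0.30, adjusted p = 0.00911). The call against SSC held in all 16 settings. With the mean over its 3 probe sets the differences shrank to 1.23 and 0.99, and the call against iSSC was lost (adjusted p = 0.0537), as it was without iSSC replicate 1 (0.0676) or iSSC replicate 2 (0.0725). Of the 3 probe sets 1 lay below the array median on every array, and all 3 had the same sign. Among the 10 subunits the closest pair in pattern was Cbx7 and Phc1 (distance 0.55), and the next was Eed and Rnf2 (0.68).

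Bmi1, the Pcgf protein known for keeping adult stem cells from senescence, fell in mSSC. It was at 7.40 and 8.17 in mSSC, 9.36 and 9.15 in iSSC, and 9.38 and 10.23 in SSC. With this main probe set the mSSC arrays were below all others, and the iSSC arrays below those of SSC by little. The other probe set had a different order, at 5.97 and 7.36 in mSSC, 7.18 and 7.03 in iSSC, and 8.44 and 8.75 in SSC. There the mSSC arrays lay on either side of the iSSC arrays, and iSSC against SSC was at -1.49. Bmi1 fell 4.06-fold in mSSC against SSC (-2.02 ± 0.38, adjusted p = 0.0162), and both of its probe sets were called there when all probe sets were tested. The call was lost without mSSC replicate 1 (-1.64, adjusted p = 0.0609). In mSSC against iSSC it fell 2.77-fold (-1.47 ± 0.38, adjusted p = 0.0445). That call was lost in 6 settings, and with the more variable probe set the difference was -0.44 (adjusted p = 0.61). The mean over both probe sets gave -0.96 (0.16), and a second quantile normalization -1.39 (0.0526). Without mSSC replicate 1 it was -1.09 (adjusted p = 0.167), without iSSC replicate 1 -1.36 (0.222) and without iSSC replicate 2 -1.58 (0.161). Tex14, needed for the bridges between male germ cells, was among the 3 genes most like Bmi1 (distance 0.57), together with Scin (0.45) and 5530601H04Rik (0.55). Markers of the germ line fell between the same samples, with 8 lower and 1 higher of 9 in mSSC against SSC, and their part in the Bmi1 result was not tested.

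The ubiquitin ligases did not pass in any comparison. Rnf2, the main ligase of PRC1 in embryonic stem cells, was at 10.81 and 11.36 in mSSC, 10.72 and 10.34 in iSSC, and 9.01 and 11.07 in SSC. The SSC arrays differed by 2.06, more than for any other subunit with its main probe set, and enclosed the iSSC arrays. The second of the 5 probe sets of Rnf2 was about as bright, with SSC arrays closer together, at 9.99 and 10.88. With it the difference was 0.51 in mSSC against SSC and -0.27 in iSSC against SSC. All 5 had the sign of the main one in mSSC against SSC, and 4 of 5 in iSSC against SSC. Rnf2 was at 1.05 ± 0.64 in mSSC against SSC (95% interval -0.49 to 2.58, adjusted p = 0.309). This was 2.08 without SSC replicate 2, where it passed (adjusted p = 0.0185), and 0.02 without SSC replicate 1. Ring1 was at 7.60 and 6.85 in mSSC, 7.41 and 7.44 in iSSC, and 7.46 and 7.48 in SSC. Its range over the 6 arrays was the smallest of the 10 and was set by the mSSC arrays. Its difference in mSSC against SSC had a 95% interval from -0.94 to 0.44 (adjusted p = 0.593), which does not show that the levels were alike. Rnf2 minus Ring1 within an array was 1.30 higher in mSSC than in SSC, with overlapping groups (2-sided exact permutation p = 0.667). This value was 0.28 without SSC replicate 1, 2.32 without SSC replicate 2, 0.65 without mSSC replicate 2 and 1.95 without mSSC replicate 1.

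With their main probe sets Ezh2, Eed and Rnf2 were over 1 log2 unit lower on SSC replicate 1 than on SSC replicate 2, as were 4.7% of all genes. Which subunits do so depends on the probe set. With the second brightest one, SSC replicates 1 and 2 were at 6.53 and 8.47 for Ezh1 and 8.87 and 10.39 for Suz12. For Rnf2 they were at 9.99 and 10.88, and for Eed, where that probe set is dim, at 4.47 and 4.10. SSC replicate 1 was also the array with more macrophage and fibroblast signal and with the largest 3' excess, and the part of these in the gap was not tested.

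Other Polycomb genes were read from lists of PRC2 partners, canonical PRC1 and variant PRC1, in all 35 measured genes. In mSSC against SSC 5 rose and 8 fell, or 14.3% and 22.9% of the 35 against 8.22% and 10.6% of all genes. Against iSSC 6 rose and 10 fell in mSSC, or 17.1% and 28.6% against 7.53% and 9.6%. Between iSSC and SSC limma called 0 higher and 3 lower, the lower ones 8.57% against 1.87%. With 1 array left out these calls numbered 7 to 11 in mSSC against SSC. They numbered 9 to 20 in mSSC against iSSC, apart from 2 without iSSC replicate 1 and 1 without iSSC replicate 2. Between iSSC and SSC they numbered 0 without SSC replicate 1 or either iSSC array, and at most 2 otherwise. Their median difference in mSSC against SSC was -0.48, whereas that of the 10 subunits was 1.13.

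Of 9 PRC2 partners 2 rose and 2 fell in mSSC against SSC, or 22.2% each against 8.22% and 10.6% of all genes. Epop, which tempers PRC2 in mouse embryonic stem cells, was at 9.69 and 9.55 in mSSC, 7.32 and 7.71 in iSSC, and 7.13 and 7.27 in SSC. It rose by 2.42 ± 0.23 against SSC (adjusted p = 0.00208) and by 2.10 ± 0.23 against iSSC (adjusted p = 0.00347). Phf19, a Polycomb-like protein that recruits PRC2, rose by 1.44 ± 0.20 against SSC (adjusted p = 0.00703), while its relative Phf1 fell by 1.16 ± 0.22 (adjusted p = 0.0174). Mtf2, the third Polycomb-like protein, was at 12.65 and 12.97 in mSSC, 11.01 and 10.83 in iSSC, and 12.48 and 12.13 in SSC. As with Suz12, the iSSC arrays were the lowest, and for Mtf2 both comparisons with iSSC passed, at 1.89 ± 0.24 in mSSC against iSSC (adjusted p = 0.0053) and -1.39 ± 0.24 in iSSC against SSC (adjusted p = 0.048). Lcor, whose locus also encodes a PRC2 accessory protein, fell in mSSC against SSC (-2.72 ± 0.26, adjusted p = 0.00216) and in iSSC against SSC (-1.82 ± 0.26, adjusted p = 0.0333). Epop kept both calls in all 16 settings and Phf19 its call against SSC. Phf1 lost its call against SSC without SSC replicate 1 or any mSSC or iSSC array, and Lcor kept its own with each array left out. With the most variable probe set Lcor lost that call (adjusted p = 0.0987 by limma). In iSSC against SSC the calls of Mtf2 and Lcor were lost with the mean of probe sets and with the most variable one. The calls of Mtf2 and Lcor in iSSC against SSC were lost without any SSC or iSSC array, that of Mtf2 also without either mSSC array, and Mtf2 in mSSC against iSSC lost its call without iSSC replicate 2. The histone-binding subunits Rbbp4 and Rbbp7 stayed between 12.41 and 13.39 on all arrays.

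Canonical PRC1 had 0 higher and 3 lower of 9 genes in mSSC against SSC (limma). These were 0% and 33.3%, against 8.22% and 10.6% of all genes. In mSSC against iSSC 0 were higher and 4 lower, or 0% and 44.4% against 7.53% and 9.6% of all genes. Phc2, a paralog of Phc1, was at 9.30 and 8.64 in mSSC, 10.77 and 10.71 in iSSC, and 10.55 and 10.21 in SSC, and fell by 1.40 ± 0.28 against SSC (adjusted p = 0.0205). Scmh1, another partner of Phc proteins, fell by 1.58 ± 0.32 (adjusted p = 0.0195). Scml2, a PRC1 partner of the mouse male germ line, was at 9.26 and 6.84 in mSSC, 11.20 and 10.75 in iSSC, and 11.19 and 11.68 in SSC, and fell by 3.39 ± 0.73 against SSC (adjusted p = 0.0245). Its mSSC arrays differed widely but were both below the rest. Cbx2, a paralog of Cbx7 prominent in gonads, fell by 1.18 ± 0.27 in mSSC against iSSC (adjusted p = 0.0296). Cbx7 minus Cbx2 within an array was 0.84 and 0.96 in mSSC, -2.21 and -2.32 in iSSC, and -1.999 and -2.35 in SSC. The change was 3.08 in mSSC against SSC with the groups apart (exact permutation p = 0.333, the smallest possible), and it was 1.65 with the mean over probe sets. Phc3 was at 7.55 and 7.76 in mSSC, 6.42 and 6.79 in iSSC, and 8.85 and 8.18 in SSC, and fell in iSSC against SSC (-1.90 ± 0.29, adjusted p = 0.0382). Against SSC, Phc2, Scmh1 and Scml2 each lost the call without SSC replicate 1, Phc2 also without either iSSC array or mSSC replicate 2, Scmh1 without mSSC replicate 1, and Scml2 without SSC replicate 2 or either iSSC array. Cbx2 lost its call without either iSSC array or mSSC replicate 2, and Phc3 without SSC replicate 1 or either iSSC array. With the most variable probe set the calls of Phc2 and Scmh1 against SSC, of Cbx2 and of Phc3 were lost. With the mean of probe sets those of Scmh1 and Scml2 against SSC and of Phc3 were lost. Pcgf2, the paralog of Bmi1, was at -0.04 ± 0.36 in mSSC against SSC (adjusted p = 0.957). Bmi1 minus Pcgf2 changed by -1.99 in mSSC against SSC, with the groups apart (exact permutation p = 0.333). Single arrays moved this change, to -2.89 without SSC replicate 1, -1.09 without SSC replicate 2, -1.33 without mSSC replicate 1 and -2.64 without mSSC replicate 2.

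Variant PRC1, which lacks the Cbx subunit, had 3 higher and 3 lower of 17 genes in mSSC against SSC. These were 17.6% each, against 8.22% and 10.6% of all genes. In mSSC against iSSC 3 were higher and 5 lower, or 17.6% and 29.4% against 7.53% and 9.6% of all genes. Pcgf6, which defines the variant that silences germ line genes in mouse embryonic stem cells, was at 11.55 and 11.61 in mSSC, 10.28 and 10.21 in iSSC, and 10.24 and 10.54 in SSC. It rose by 1.19 ± 0.21 against SSC (adjusted p = 0.014) and by 1.33 ± 0.21 against iSSC (adjusted p = 0.0104). L3mbtl2 of the same variant rose by 0.86 ± 0.23 against SSC (adjusted p = 0.0463). Its DNA-binding subunit Mga was at 9.55 and 8.77 in mSSC, 7.39 and 8.02 in iSSC, and 9.21 and 9.42 in SSC, again lowest in iSSC, and rose in mSSC against iSSC (1.45 ± 0.35, adjusted p = 0.0346). Pcgf5, which defines another variant, fell in mSSC by 2.10 ± 0.35 against SSC (adjusted p = 0.0114) and by 1.91 ± 0.35 against iSSC (adjusted p = 0.0152), together with its partner Auts2 against SSC (-1.68 ± 0.31, adjusted p = 0.015). Bcor, a partner of Pcgf1, rose by 1.36 ± 0.35 against SSC (adjusted p = 0.041). Fbrs, a relative of Auts2, fell by 1.46 ± 0.30 against SSC (adjusted p = 0.0205). The deubiquitinase Usp7 rose in mSSC against iSSC by 1.02 ± 0.20 (adjusted p = 0.0197), and Fbrsl1 and Bcorl1 fell by 1.06 ± 0.21 (adjusted p = 0.0196) and 1.04 ± 0.22 (adjusted p = 0.0247). Pcgf5 kept its call against SSC in all 16 settings and Pcgf6 in 13, with a loss without mSSC replicate 2. L3mbtl2 and Bcor lost theirs without SSC replicate 2 or any mSSC or iSSC array, Auts2 without mSSC replicate 1, and Fbrs without SSC replicate 1, mSSC replicate 2 or either iSSC array. All 6 calls named against iSSC were lost without either iSSC array, those of Mga, Usp7 and Fbrsl1 also without mSSC replicate 1, and those of Fbrsl1 and Bcorl1 without mSSC replicate 2. All 6 were also lost with the mean of probe sets, and those of Pcgf6, Mga and Usp7 with the most variable one. Against SSC, Pcgf6 lost its call with either probe set choice, L3mbtl2 with the most variable probe set and Auts2 with the mean.

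**Figure D4:**
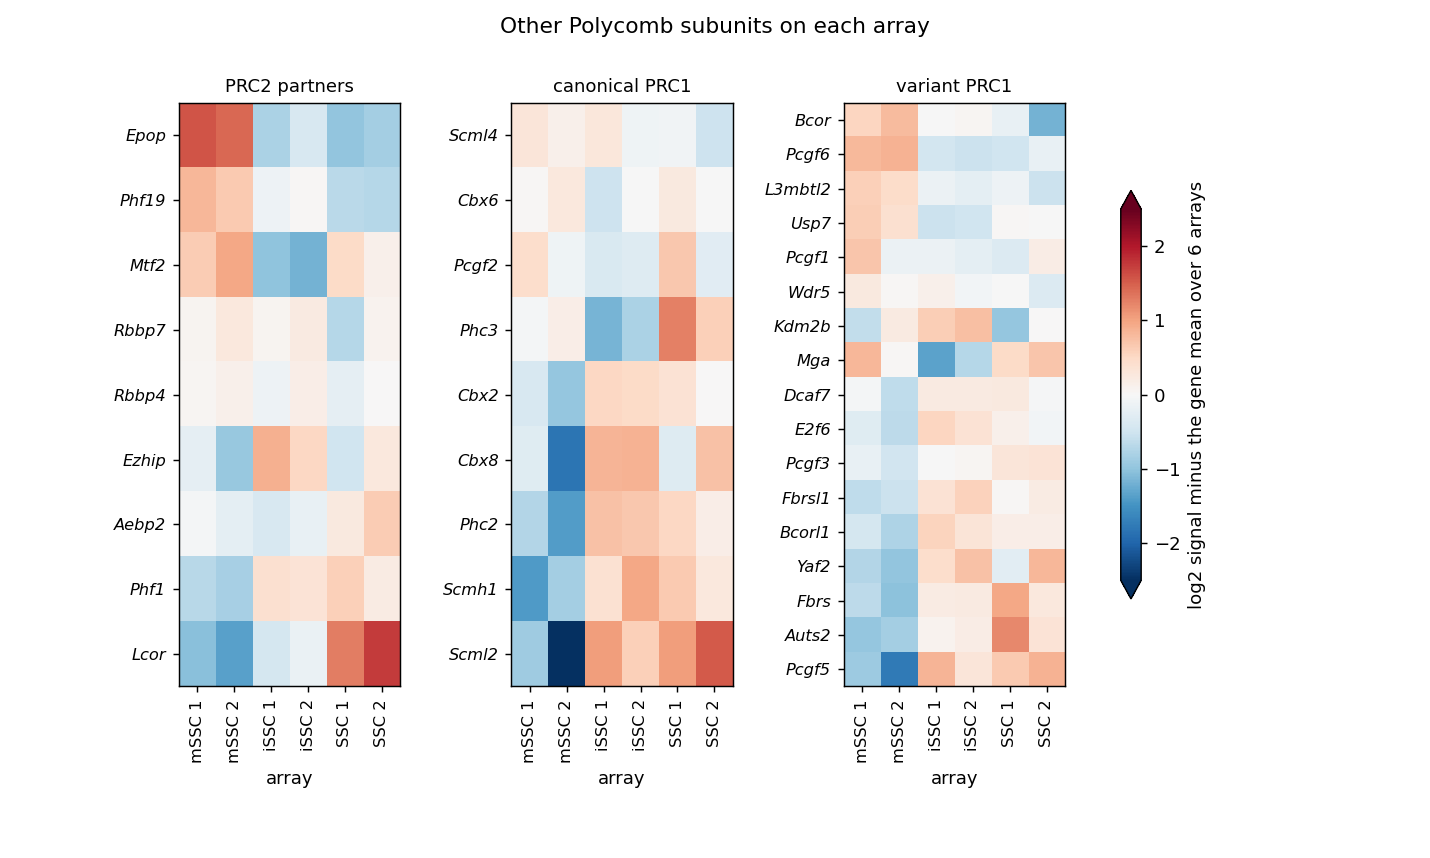
Log2 signal minus the gene mean over the 6 arrays (colour, red above and blue below the mean) for 35 other Polycomb genes (rows) on the arrays of mSSC, iSSC and SSC (columns), in the lists of PRC2 partners, canonical PRC1 and variant PRC1, each ordered by the mSSC minus SSC difference. Epop, Phf19, Pcgf6 and L3mbtl2 are highest on both mSSC arrays, whereas Phc2, Scmh1, Scml2 and Pcgf5 are lowest there.

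Enzymes that oppose Polycomb include the demethylases Kdm6a and Kdm6b, which remove the PRC2 mark, deubiquitinases of histone H2A, and the trithorax group of activating methyltransferases. Of 19 measured genes of this kind 3 rose and 5 fell in mSSC against SSC, or 15.8% and 26.3% against 8.22% and 10.6% of all genes. Kdm6b was at 8.43 and 8.62 in mSSC, 9.60 and 9.95 in iSSC, and 10.00 and 10.32 in SSC, and fell by 1.63 ± 0.24 against SSC (adjusted p = 0.00801). Kdm6a was at 9.04 and 9.36 in mSSC, 7.37 and 7.96 in iSSC, and 8.29 and 8.62 in SSC, and rose in mSSC against iSSC (1.53 ± 0.29, adjusted p = 0.0161). Kdm6b fell there (-1.25 ± 0.24, adjusted p = 0.0179), so the demethylases moved in opposite directions between mSSC and iSSC. Dpy30 and Ash2l, shared subunits of the trithorax methyltransferases, rose against SSC by 2.06 ± 0.31 (adjusted p = 0.00866) and 1.33 ± 0.27 (adjusted p = 0.0205). The deubiquitinase Mysm1 fell by 1.03 ± 0.25 (adjusted p = 0.0338). Kmt2c, a methyltransferase of enhancers, fell in iSSC against SSC (-1.67 ± 0.21, adjusted p = 0.0287) and in mSSC against SSC (-1.22 ± 0.21, adjusted p = 0.0127). Nsd2, a methyltransferase of another lysine of histone H3, fell by 1.88 ± 0.30 against SSC (adjusted p = 0.0102) and by 1.77 ± 0.30 against iSSC (adjusted p = 0.0127). Asxl2, a cofactor of the deubiquitinase Bap1, and the methyltransferase Nsd1 rose in mSSC against iSSC by 1.34 ± 0.22 (adjusted p = 0.0109) and 2.01 ± 0.33 (adjusted p = 0.011). Kdm6b and Dpy30 kept their calls against SSC in all 16 settings, and Nsd2 and Kmt2c with each array left out. Other calls depended on the probe set. With the mean of probe sets and with the most variable one, Kmt2c lost both its calls and Mysm1 its own. Nsd1 and Kdm6a lost theirs against iSSC in the same way. Nsd2 lost both calls with the mean, and Asxl2 its call with the most variable probe set. Ash2l lost its call without SSC replicate 1, mSSC replicate 2 or either iSSC array, and Mysm1 without any 1 of the 6 arrays. The calls named in mSSC against iSSC were lost without either iSSC array, that of Kdm6b also without mSSC replicate 1 and that of Kdm6a without mSSC replicate 2. Kmt2c in iSSC against SSC lost its call without SSC replicate 1 or either iSSC array.

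Developmental regulators known as Polycomb targets in embryonic stem cells moved in both directions. Of 35 measured 4 rose and 5 fell in mSSC against SSC, or 11.4% and 14.3% against 8.22% and 10.6% of all genes. Against iSSC 4 rose and 8 fell in mSSC, or 11.4% and 22.9% against 7.53% and 9.6%. Between iSSC and SSC 1 fell, Gata4, an endoderm and gonad factor (-1.58 ± 0.23, adjusted p = 0.0333). This gene is also on the list of Sertoli cell markers and is counted in both lists. The median level of the 35 was 5.58 and 5.52 on the mSSC arrays, 5.35 and 5.47 on the iSSC arrays, and 5.36 and 5.00 on the SSC arrays. These lay below the array medians of 5.83 to 5.93. Cdkn2b, a cell cycle inhibitor of the Ink4 locus, was at 7.56 and 8.28 in mSSC, 10.07 and 10.76 in iSSC, and 10.26 and 9.94 in SSC, and fell by 2.18 ± 0.35 against SSC (adjusted p = 0.0102). Its neighbour Cdkn2a, a known target of Bmi1 and Cbx7, was at 5.10 and 6.40 in mSSC, 7.98 and 9.20 in iSSC, and 7.35 and 8.70 in SSC, and fell in mSSC against iSSC (-2.83 ± 0.65, adjusted p = 0.0316). Zic1, a neural factor, was at 3.50 and 4.56 in mSSC, 10.76 and 11.07 in iSSC, and 8.61 and 10.60 in SSC, and fell by 5.57 ± 0.67 in mSSC against SSC (adjusted p = 0.00423). Tbx3, which mouse embryonic stem cells also express, rose by 4.01 ± 0.61 (adjusted p = 0.00866). Cdkn1c, an imprinted inhibitor of the cell cycle, was at 6.86 and 6.83 in mSSC, 8.62 and 8.45 in iSSC, and 9.65 and 9.12 in SSC, and fell by 2.54 ± 0.25 against SSC (adjusted p = 0.00231). Neurod1, a neural and endocrine factor, rose by 2.13 ± 0.28 against SSC (adjusted p = 0.00561), and Gata4 fell by 1.47 ± 0.23 (adjusted p = 0.00889). Foxa2, an endoderm factor, fell in mSSC against iSSC by 1.94 ± 0.26 (adjusted p = 0.00637) and the homeobox gene Msx2 by 1.94 ± 0.29 (adjusted p = 0.00816). The calls named against SSC held with each array left out. Foxa2 lost its call without iSSC replicate 2, Msx2 without either iSSC array, and Cdkn2a without either iSSC array or mSSC replicate 1. Gata4 in iSSC against SSC lost its call without any SSC or iSSC array, and with either the mean of probe sets or the most variable one.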

How the data were processed

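Total RNA (10 µg, Trizol) from 6 samples was amplified with NuGEN Ovation kits and measured on Affymetrix arrays of 45101 probe sets. The authors deposited log2 signals made with RMA (background correction, quantile normalization and probe set summary), per the submitters' processing notes, with no version given in the sources used here. No further normalization or filter on low values was applied, and 0 columns were left out. Of the probe sets 34958 had 1 symbol in GEO's platform annotation, 932 several and 9211 none, and 0 symbols changed through the RefSeq table of GRCm38.p6. The brightest probe set over 6 arrays stood for each of 18194 genes.

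Groups were compared with limma 3.58.1 (R 4.3.3), fitted to the means of the 3 groups with the variance shared over the 6 arrays. Tests were 2-sided, and the threshold was 0.05 after Benjamini-Hochberg adjustment over all genes. The fitting procedure was also tested on simulated data with known changes. The 10 subunits and all gene lists were chosen with earlier results of these data known. Named are all 10 subunits, up to 6 called genes per list and comparison with the smallest p, and fixed markers. For Ezh2, Ezh1, Suz12 and Bmi1 up to 3 of the genes most alike are named too. Genes of the other lists that are named without a call, Cdkn2a and the neighbours of Phc1, were chosen after their values were seen. Some genes on the lists were not analysed here. Array medians lay between 5.83 and 5.93 and lower quartiles between 4.23 and 4.38.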

Additional observations from a re-analysis of the deposited data

How the results depend on the processing

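The counts of genes and of subunits called and each subunit's difference were recomputed under 16 alternative settings: a replicate block, only the 4 arrays compared, an intensity trend, robust variances, arrays centred on medians, a second quantile normalization, the mean of probe sets, the most variable probe set, brighter genes only, a 2-fold minimum, and each array left out. The differences between paralogs were recomputed with both probe set choices and each array left out. The other lists' counts and called genes were put through the same 16 settings, an alternative chosen after seeing the data, and the marker lists and neighbours of Phc1 were not. The number of genes called in mSSC against SSC was 3425, with 1966 on the 4 arrays compared and from 1966 (without iSSC replicate 1 or 2) to 3462 with an array left out. Without SSC replicate 1 it was 2146 and without mSSC replicate 1 it was 2116. The count for iSSC against SSC was 381, with 148 with the replicate block, 29 with the mean of probe sets and 113 with the most variable probe set, and from 0 (without SSC replicate 1, iSSC replicate 1 or iSSC replicate 2) to 503 with an array left out. In mSSC against iSSC it was 3117, and from 604 (without iSSC replicate 1) to 3724 with an array left out, with 771 without iSSC replicate 2 and 1954 without mSSC replicate 1. With fewer arrays the fit has fewer residual degrees of freedom. An array alone in its group adds nothing to the variance. Leaving out either array of the group not compared therefore gives the same fit as using only the 4 arrays compared. Counts out of the 16 settings thus count this fit more than once.

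Of the 10 subunits 6 were called in mSSC against SSC, from 3 (without mSSC replicate 1: Ezh2, Cbx7 and Phc1) to 7 with an array left out. In mSSC against iSSC 6 were called, from 1 (Suz12, without either iSSC array) to 7. None of the 10 was called in iSSC against SSC in any of the 16 settings. Some differences that were not called changed sign. Ring1 in mSSC against SSC ran from -0.63 to 0.12 with an array left out (0.12 without mSSC replicate 2), and in mSSC against iSSC from -0.58 to 0.17 (0.17 without mSSC replicate 2). In iSSC against SSC Ring1 was at 0.0212 with arrays centred on medians and 0.0549 with quantile normalization. With an array left out, the iSSC against SSC difference ran from -0.14 to 0.95 for Ezh2, -0.54 to 1.52 for Rnf2, -0.13 to 0.57 for Cbx7, -0.0497 to 0.33 for Jarid2 and -0.0116 to 0.13 for Phc1. The negative values were those without SSC replicate 1 for Ezh2 and Rnf2, without SSC replicate 2 for Cbx7, and without SSC replicate 2 or iSSC replicate 1 for Jarid2 and Phc1. The cause of these changes of sign was not tested. Without SSC replicate 1 the iSSC against SSC difference of Eed was 0.04, against 0.68 on all arrays, and that of Bmi1 was -0.98, against -0.55. The upper ends of the ranges of Cbx7, Jarid2 and Phc1 were also those without SSC replicate 1.

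Ezh2 minus Ezh1 changed by -1.25 between iSSC and SSC with the most variable probe set. Between mSSC and iSSC it changed by 2.84 with the mean of probe sets and by 3.57 with the most variable. With the most variable probe set Bmi1 minus Pcgf2 changed by -0.94 between iSSC and SSC, and by -0.95 between mSSC and iSSC. Cbx7 minus Cbx2 changed by 1.65 between mSSC and SSC, -0.67 between iSSC and SSC and 2.32 between mSSC and iSSC with the mean of probe sets, and by 2.20, -1.27 and 3.47 with the most variable.

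Of the 35 other Polycomb genes 13 were called in mSSC against SSC, with 7 on the 4 arrays compared and 7 to 11 with an array left out. Against iSSC 16 were called in mSSC, with 7 with the mean of probe sets, 9 with the most variable probe set and 1 to 20 with an array left out. Between iSSC and SSC 3 were called, with 1 after quantile normalization, 0 with the replicate block or either probe set choice, and 0 to 2 with an array left out. Of the opponents 8 were called in mSSC against SSC, with 5 under an intensity trend, 4 on the 4 arrays compared or with either probe set choice, and 4 to 6 with an array left out. Against iSSC it was 6 opponents in mSSC, with 3 with the most variable probe set and 0 to 6 with an array left out, and between iSSC and SSC 1, with 0 for either probe set choice and 0 to 3. The developmental regulators gave 9 calls in mSSC against SSC (7 to 9 with an array left out), 12 in mSSC against iSSC (2 to 12) and 1 between iSSC and SSC, with 0 under the replicate block or either probe set choice and 0 to 1. None of the called genes of these lists changed direction.

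Same-numbered arrays deviated together only weakly, with correlations across genes of 0.17, 0.07 and 0.12 between pairs of groups. The labels do not say whether the number pairs arrays, and these correlations cannot exclude a shared batch or preparation. The block changed no call of the 10 subunits, but in iSSC against SSC it ended the calls of Phc3, Lcor, Mtf2 and Gata4. Centring moved the median difference of all genes in iSSC against SSC to 0.17, against 0.10 as deposited, and in mSSC against SSC to 0.15, against 0.08. None of the 10 subunits fell below the lower quartile of any array with its main probe set. That quartile is not a detection limit, and an effect of dim signal on these values was not tested.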

Other observations

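Phc1 lies on the same chromosome as Nanog, with 6 protein-coding genes between them in the RefSeq order of GRCm38.p6, of which 5 were measured. In mSSC against SSC 2 of the 5 rose and 2 fell (limma), against 8.22% and 10.6% of all genes. Gdf3, a growth factor of the Tgf-beta family, was at 8.64 and 9.78 in mSSC, 5.20 and 5.14 in iSSC, and 5.08 and 5.01 in SSC, and rose by 4.16 ± 0.37 (adjusted p = 0.00187). Dppa3, a maternal factor that protects methylated DNA, rose by 2.97 ± 0.47 (adjusted p = 0.00964) and Nanog by 8.66 ± 0.33 (adjusted p = 0.000214). Nearer to Phc1 the matrix gene Mfap5 fell by 1.54 ± 0.34 (adjusted p = 0.0259) and the RNA editing enzyme Apobec1 by 1.21 ± 0.32 (adjusted p = 0.0447). Rimklb, next to Phc1, was at -0.45 ± 0.34 (adjusted p = 0.41). The genes with higher signal were thus not adjacent to Phc1.

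Both iSSC arrays lay below the other 4 in 1 of the 10 subunits (Suz12), in 5 of the 35 other Polycomb genes (Mga, Mtf2, Pcgf2, Phc3 and Usp7), or 14.3%, and in 6 of the 19 opponents (Asxl2, Asxl3, Kdm6a, Kmt2c, Nsd1 and Usp16), or 31.6%. Of all genes 8.13% had this order. Nsd1 was at 9.35 and 9.29 in mSSC, 7.13 and 7.49 in iSSC, and 9.08 and 8.20 in SSC. In iSSC against SSC it was at -1.33 ± 0.33 (adjusted p = 0.118), which did not pass. This order was looked for after the values were seen, and no test of it was made.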
